A study of Mus musculus with 6 samples.

Results

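CC chemokine ligands are small secreted proteins, and 9 of their genes were followed here in mouse bone-marrow-derived macrophages: Ccl2, Ccl3, Ccl4, Ccl5, Ccl6, Ccl7, Ccl9, Ccl12 and Ccl22. They were taken by gene name from a deposited expression table of 55401 genes. The cells were grown from tibia and femur marrow for 7 days in medium that held L929 cell-conditioned medium, a source of the macrophage growth factor M-CSF, and were then detached with trypsin and reseeded. The L-OHP group (3 samples) received 5 µM L-OHP, a common abbreviation of the platinum drug oxaliplatin, for 12 h. The L-OHP+FUC group (3 samples) received 250 µg/ml fucoidan, a sulfated polysaccharide of brown algae, for 12 h and then the same 5 µM L-OHP for 12 h. Every sample therefore received L-OHP, and macrophages without L-OHP or with fucoidan alone were not analysed here. The labels used here give no strain, genotype, sex or age of the mice and do not say whether replicates came from separate cultures or animals, so the tests are against the scatter of these samples alone, part or all of which may be technical.

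A CC chemokine carries a pair of neighbouring cysteines near its amino terminus and acts on G protein-coupled receptors of migrating leukocytes. Held on sulfated glycan chains of cell surfaces and matrix, these proteins form the gradients along which monocytes, T cells, eosinophils and other leukocytes move into tissue. Macrophages are a major source: Ccl3, Ccl4 and Ccl5 draw T cells, NK cells and monocytes, and Ccl3 and Ccl5 act on Ccr1 among other receptors. Ccl2, Ccl7 and Ccl12 recruit monocytes through Ccr2, Ccl6 and Ccl9 are rodent ligands of Ccr1, and Ccl22 acts on Ccr4 of regulatory and type 2 helper T cells.

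Pretreatment with fucoidan was followed by changes in opposite directions within this family. Ccl3, Ccl6 and Ccl7 rose, to 1.78, 1.62 and 1.96 times their mean level with L-OHP alone. Ccl5, the most abundant ligand with L-OHP alone, fell by 1.45 on the log2 scale. In the alternative fits given below, Ccl3 and Ccl6 kept their call in all 15. The Ccl5 call was lost in 9 of 15 and the Ccl7 call in 5 of 14. After median ratio rescaling 4 ligands were called higher and 0 lower. Ccl2, Ccl4, Ccl9 and Ccl12 did not pass the test, and Ccl22 was too low to be tested. Levels are FPKM, fragments scaled by transcript length and library depth, and were compared with limma on log2(FPKM + 1) over the 12084 genes that reached 0.5 FPKM in 3 or more libraries, at a Benjamini-Hochberg adjusted p of 0.05. Of the 8 ligands tested, each of which was above 0.5 FPKM in all 6 libraries, 3 were called higher, against 7.67% of all tested genes, and 1 lower, against 19.3% of all tested genes. In either direction 4 of the 8, or 50%, were called, against 27.0% of all tested genes. The median log2 fold change was 0.50 over the 8 ligands and -0.10 over all tested genes. The 5917 genes with a mean of at least 5 FPKM, fitted alone, had a median log2 fold change of -0.007. Of them 754 were called higher and 966 lower, with 2 ligands among the former and 1 among the latter. Over all tested genes 927 were called higher and 2335 lower, a split that became 1773 and 1560 after median ratio rescaling, 1565 and 1359 after quantile normalization, and 1389 and 1437 with each gene's GC content and length corrected for. With a fold of at least 2 asked for as well, Ccl5 alone of the 8 remained, against 3.50% of all tested genes in either direction and 3.03% lower.

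The implied depth was 15.7 to 18.7 M fragments a library. The L-OHP libraries held 10711 to 10813 genes at 1 FPKM or more and the L-OHP+FUC libraries 9841 to 10188. Mitochondrial genes took 5.99% to 9.36% of summed FPKM with L-OHP and 8.84% to 9.44% with L-OHP+FUC. Within the L-OHP group, replicate 3 had the highest mitochondrial share, 9.36%, against 7.50% in replicate 1 and 5.99% in replicate 2. It also had the lowest level of 8 of the 9 ligands, all but Ccl6. The share of all tested genes that were lowest there was not counted. Replicate 2 had the lowest mitochondrial share of the group and its largest implied depth, 18.7 M fragments. The part of these library differences in the ligands' results was not tested, and results that change without a library are given below with and without it. In bulk RNA, fewer expressing cells and less mRNA per cell cannot be told apart.

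**Figure D1:**
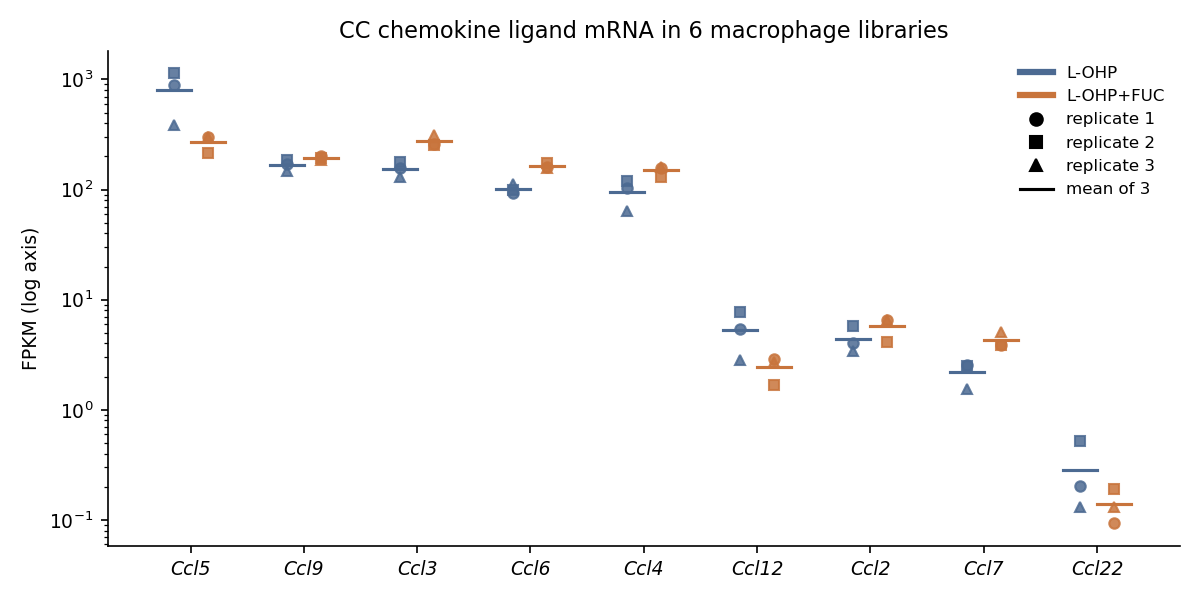
FPKM on a log axis for each of the 9 ligands, ordered by their mean with L-OHP, in 3 L-OHP and 3 L-OHP+FUC libraries. Points are libraries, with 1 symbol per replicate number, and bars are means of 3. Ccl5 lies at 388 to 1139 FPKM with L-OHP and at 213 to 302 FPKM with L-OHP+FUC, whereas every L-OHP+FUC point of Ccl3, Ccl4, Ccl6 and Ccl7 lies above the L-OHP points.

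The RefSeq table of promoters on GRCm38.p6 had entries for 5 of the 9 ligands, Ccl3, Ccl6, Ccl9, Ccl12 and Ccl22, and none for Ccl2, Ccl4, Ccl5 and Ccl7. The 250 bases before the start are shown 5′ to 3′ on the gene's strand for 4 chromosome 11 ligands, to set Ccl3 and Ccl6, which rose, beside Ccl9 and Ccl12, which did not pass the test. The windows are chr11:83649379-83649628 on the minus strand for Ccl3, chr11:83593088-83593337 on the minus strand for Ccl6, chr11:83578637-83578886 on the minus strand for Ccl9 and chr11:82101595-82101844 on the plus strand for Ccl12. Capitals mark matches, on either strand, to 6 motifs: the NF-kB consensus, the core of the interferon-stimulated response element (ISRE), the AP-1 site TGANTCA, the C/EBP site TTNNGNAA, the antioxidant response element core TGANNNNGC and the TATA box TATAAA.
Ccl3: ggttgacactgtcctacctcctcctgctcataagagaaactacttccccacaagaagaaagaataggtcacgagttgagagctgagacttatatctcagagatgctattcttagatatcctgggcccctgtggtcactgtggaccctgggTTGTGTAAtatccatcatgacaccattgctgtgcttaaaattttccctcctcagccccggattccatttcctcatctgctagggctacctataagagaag
Ccl6: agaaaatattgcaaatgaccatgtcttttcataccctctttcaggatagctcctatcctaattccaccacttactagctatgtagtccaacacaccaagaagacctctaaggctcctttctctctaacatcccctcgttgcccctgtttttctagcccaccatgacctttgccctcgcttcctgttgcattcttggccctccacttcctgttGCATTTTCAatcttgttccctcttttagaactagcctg
Ccl9: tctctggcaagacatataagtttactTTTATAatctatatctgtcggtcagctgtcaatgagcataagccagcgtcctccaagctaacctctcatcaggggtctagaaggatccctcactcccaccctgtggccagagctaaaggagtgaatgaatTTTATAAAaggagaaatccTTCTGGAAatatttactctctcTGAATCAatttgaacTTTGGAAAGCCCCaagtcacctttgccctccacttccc
Ccl12: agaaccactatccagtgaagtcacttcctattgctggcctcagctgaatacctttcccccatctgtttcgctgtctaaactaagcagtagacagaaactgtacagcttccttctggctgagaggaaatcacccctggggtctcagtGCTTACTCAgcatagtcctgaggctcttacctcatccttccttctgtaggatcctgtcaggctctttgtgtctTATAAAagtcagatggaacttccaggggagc
Counting back from -1 at the base before the start, Ccl3 had a C/EBP match at -100 to -93 and Ccl6 an antioxidant element match at -38 to -30. The Ccl9 window held an NF-kB match at -35 to -26 that overlapped a C/EBP match at -38 to -31. It also held an AP-1 match at -53 to -47, a second C/EBP match at -75 to -68, and TATA matches at -224 to -219, -94 to -89 and -92 to -87, the last pair overlapping. The Ccl12 window had an antioxidant element match at -104 to -96 and a TATA match at -31 to -26. The search covered 300 bases, the 250 shown and the 50 after the start, and found no match in those 50. None of the 6 motifs was in the Ccl22 window, and the ISRE core was in 0 of the 5 windows. The 250 bases taken before the Ccl22 start run to 94745683, past the annotated gene start at 94745590. Part of that window is therefore annotated exon, unlike those of the 4 chromosome 11 ligands. The Ccl3 window stops at 83649379, short of the annotated first base of this minus-strand gene at 83649355. Its positions are thus counted from a start upstream of the annotated one. Of all 32851 promoter windows of 300 bases in the table, 4.51% held the NF-kB consensus, 3.44% the ISRE core, 7.81% the AP-1 site, 40.7% the C/EBP site, 41.3% the antioxidant element core and 13.6% the TATA box. These matches are letters in a window, and binding of a factor was not measured.

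Ccl5 (RANTES), a Ccr1 ligand that draws T cells and monocytes, was the member that fell. Its level was 893, 1139 and 388 FPKM in L-OHP replicates 1, 2 and 3 and 302, 213 and 299 FPKM in L-OHP+FUC replicates 1, 2 and 3. All L-OHP+FUC libraries were below all L-OHP libraries, with L-OHP replicate 3 nearest to them. The means were 807 ± 383 FPKM and 271 ± 50.2 FPKM (SD, n = 3 each), 2.97-fold higher with L-OHP alone. The log2 fold change was -1.45 (SE 0.39, 95% interval -2.37 to -0.52, limma adjusted p = 0.0356). The spread was wider with L-OHP alone, with a coefficient of variation of 47.5% against 18.5%. Without L-OHP replicate 3 the log2 fold change was -1.91 (adjusted p = 0.00987), whereas without L-OHP replicate 1 or 2, or L-OHP+FUC replicate 1, 2 or 3, the adjusted p was 0.105, 0.0638, 0.0875, 0.112 and 0.0687. The call was also lost with median ratio rescaling (-1.29, adjusted p = 0.0506) and with no filter on low values (adjusted p = 0.0956). Ccl5 (ENSMUSG00000035042) lies on chromosome 11 at 83525778 to 83530518 of GRCm38, minus strand.

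Ccl3 (MIP-1 alpha) and Ccl4 (MIP-1 beta), which are encoded next to each other and draw monocytes and lymphocytes, were higher with fucoidan in every library. Ccl3 measured 158, 176 and 130 FPKM in the L-OHP replicates and 261, 252 and 313 FPKM in the L-OHP+FUC replicates, and the groups were well apart. Its means were 155 ± 23.2 FPKM and 276 ± 32.9 FPKM (SD, n = 3 each), and its log2 fold change of 0.83 (SE 0.15, 95% interval 0.49 to 1.18) passed the test (limma adjusted p = 0.0115). Ccl4 measured 103, 121 and 63.8 FPKM and then 157, 131 and 159 FPKM, again without overlap between the groups. The Ccl4 means were 95.7 ± 29.0 FPKM and 149 ± 15.9 FPKM (SD, n = 3 each). Its log2 fold change of 0.68 (SE 0.23, 95% interval 0.13 to 1.23) did not pass (limma adjusted p = 0.0712). Ccl4 passed with median ratio rescaling (0.84, adjusted p = 0.0405), with the GC and length correction (0.94, adjusted p = 0.0280) and without L-OHP replicate 2 (0.87, adjusted p = 0.0323). The log2 ratio of Ccl4 to Ccl3 was -0.73 ± 0.26 in the L-OHP libraries and -0.88 ± 0.13 in those with fucoidan (SD, n = 3 each), and the groups overlapped (exact two-sided permutation p = 0.4). Both genes are on chromosome 11, Ccl3 (ENSMUSG00000000982) at 83647844 to 83649355 on the minus strand and Ccl4 (ENSMUSG00000018930) at 83662584 to 83664683 on the plus strand.

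Of the monocyte-recruiting Ccr2 ligands, Ccl7 (MCP-3) rose, from a low level. It measured 2.56, 2.48 and 1.53 FPKM with L-OHP and 3.91, 3.88 and 5.05 FPKM with L-OHP+FUC. The lowest L-OHP+FUC library was above the highest L-OHP library. The means of 2.19 ± 0.570 FPKM and 4.28 ± 0.668 FPKM (SD, n = 3 each) gave a log2 fold change of 0.74 (SE 0.16, 95% interval 0.35 to 1.13, limma adjusted p = 0.0206) on the log2(FPKM + 1) scale, which understates changes of low genes. The call was lost without L-OHP+FUC replicate 1, 2 or 3 (adjusted p = 0.0576, 0.0593 and 0.0512) and with no filter on low values (adjusted p = 0.0573). At the implied depths the Ccl7 levels stood for about 20.2 to 66.2 fragments a library. Ccl7 (ENSMUSG00000035373) lies on chromosome 11 at 82045712 to 82047525, plus strand.

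Ccl2 (MCP-1), the best known Ccr2 ligand, measured 4.01, 5.74 and 3.44 FPKM with L-OHP and 6.56, 4.14 and 6.50 FPKM with L-OHP+FUC. The groups overlapped, because L-OHP+FUC replicate 2 was below L-OHP replicate 2. The means were 4.40 ± 1.20 FPKM and 5.73 ± 1.38 FPKM (SD, n = 3 each), and the log2 fold change of 0.32 had an interval that included 0 (SE 0.21, 95% interval -0.18 to 0.82, limma adjusted p = 0.291). Ccl12 (MCP-5), a mouse Ccr2 ligand, lay the other way, at 5.36, 7.67 and 2.86 FPKM with L-OHP and 2.92, 1.66 and 2.70 FPKM with L-OHP+FUC. Its L-OHP replicate 3 lay among the L-OHP+FUC libraries. The Ccl12 means were 5.30 ± 2.41 FPKM and 2.43 ± 0.670 FPKM (SD, n = 3 each), and the log2 fold change of -0.82 (SE 0.30, 95% interval -1.54 to -0.10) did not pass (limma adjusted p = 0.0855). Without L-OHP replicate 3 it did, at -1.14 (adjusted p = 0.0268), and with the GC and length correction it was -0.35. Ccl2 (ENSMUSG00000035385) lies on chromosome 11 at 82035571 to 82037453 and Ccl12 (ENSMUSG00000035352) at 82101845 to 82103400, both on the plus strand.

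Ratios of ligands within a library, taken on FPKM + 1, were compared for 6 pairs. The log2 ratio of Ccl12 to Ccl2 was 0.34, 0.36 and -0.20 with L-OHP and -0.95, -0.95 and -1.02 with L-OHP+FUC. The groups did not overlap, and the mean log2 ratio differed by -1.14 (exact two-sided permutation p = 0.1, adjusted p = 0.2 over 6 ratios), where 0.1 is the smallest p that 3 libraries against 3 can give. The log2 ratio of Ccl5 to Ccl2 was 7.48, 7.40 and 6.45 with L-OHP and 5.32, 5.38 and 5.32 with L-OHP+FUC. These groups did not overlap either, with a mean difference of -1.77 (exact two-sided permutation p = 0.1, adjusted p = 0.2). The ratio of Ccl7 to Ccl2 overlapped between the groups, with a difference of 0.42 (exact two-sided permutation p = 0.2, adjusted p = 0.24). In the L-OHP+FUC group the Ccl5 to Ccl2 and Ccl12 to Ccl2 ratios had SDs of 0.03 and 0.04. With L-OHP, where replicate 3 was lowest for both, the SDs were 0.57 and 0.32. The SDs of Ccl4 to Ccl3 and Ccl9 to Ccl6 were also smaller with L-OHP+FUC, 0.13 and 0.09 against 0.26 and 0.29. Those of Ccl7 to Ccl2 and Ccl22 to Ccl2 were larger, 0.28 and 0.38 against 0.24 and 0.09.

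Of the rodent Ccr1 ligands Ccl6 and Ccl9, which draw myeloid cells, Ccl6 rose. Ccl6 measured 93.3, 98.3 and 113 FPKM with L-OHP and 160, 175 and 157 FPKM with L-OHP+FUC. Every L-OHP+FUC library was above every L-OHP library, and here L-OHP replicate 3 was the highest of its group. The means were 102 ± 10.3 FPKM and 164 ± 9.90 FPKM (SD, n = 3 each), with a log2 fold change of 0.69 (SE 0.11, 95% interval 0.44 to 0.94, limma adjusted p = 0.00861). Ccl9 measured 171, 185 and 149 FPKM with L-OHP and 201, 193 and 185 FPKM with L-OHP+FUC. Its groups were only just apart, 185.02 FPKM being the highest L-OHP value and 185.06 FPKM the lowest L-OHP+FUC value. The Ccl9 means of 168 ± 18.4 FPKM and 193 ± 7.94 FPKM (SD, n = 3 each) gave a log2 fold change of 0.20 (SE 0.11, 95% interval -0.06 to 0.46) that did not pass (limma adjusted p = 0.208).

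The log2 ratio of Ccl9 to Ccl6 was 0.87, 0.91 and 0.39 with L-OHP and 0.32, 0.14 and 0.24 with L-OHP+FUC. It was lower in every L-OHP+FUC library, with a mean difference of -0.49 (exact two-sided permutation p = 0.1, adjusted p = 0.2). Ccl9 (ENSMUSG00000019122) lies on chromosome 11 at 83572919 to 83578636 and Ccl6 (ENSMUSG00000018927) at 83587882 to 83593087, both on the minus strand. Ccl6 overlaps E230016K23Rik on the opposite strand, which was listed at no more than 0.246 FPKM, and Ccl2 overlaps Gm17268, which was listed at 0 in all 6 libraries.

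Ccl22 (MDC), the Ccr4 ligand, measured 0.204, 0.525 and 0.131 FPKM with L-OHP and 0.0933, 0.192 and 0.132 FPKM with L-OHP+FUC, or about 3.82 to 21.7 fragments a library. The groups overlapped and only L-OHP replicate 2 reached 0.5 FPKM. It was therefore left out of the test by the minimum of 0.5 FPKM in 3 libraries. Its log2 ratio to Ccl2 differed by -0.48 with overlapping groups (exact two-sided permutation p = 0.2, adjusted p = 0.24). With 1 added to levels this low, the ratio moves little with Ccl22 and largely with Ccl2. Over the alternatives run the difference ranged from -0.96 to -0.36. Ccl22 (ENSMUSG00000031779) lies on chromosome 8 at 94745590 to 94751699, plus strand.

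**Figure D2:**
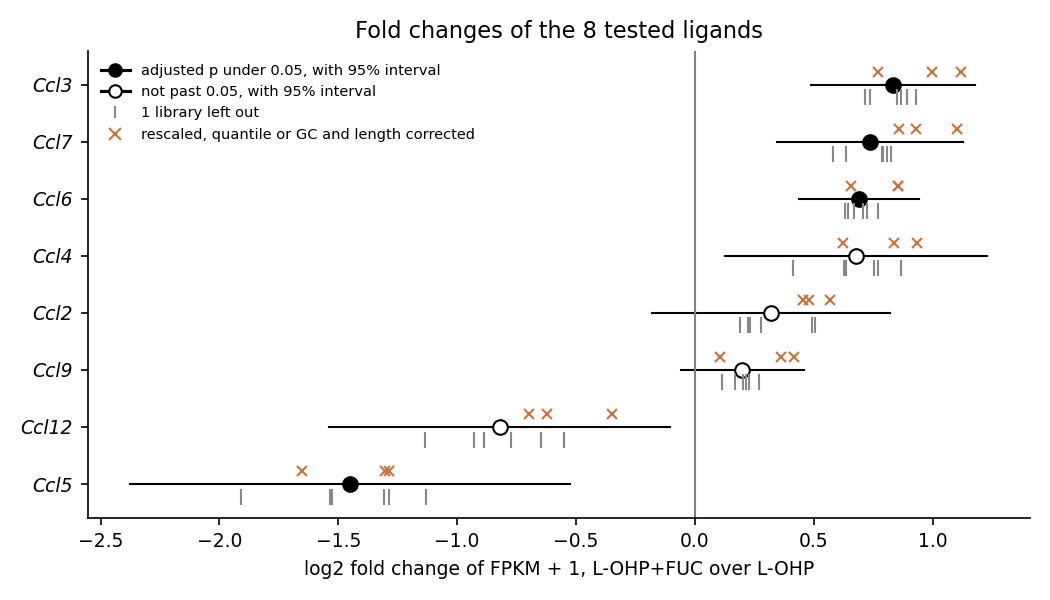
log2 fold change of FPKM + 1, L-OHP+FUC over L-OHP, for the 8 tested ligands. Circles with lines are estimates with 95% intervals, filled where the limma adjusted p is under 0.05, ticks are estimates with 1 library left out, and crosses are estimates after median ratio rescaling, quantile normalization or the GC and length correction. No tick or cross lies on the other side of 0 from its circle, and Ccl5 has the widest interval, -2.37 to -0.52.

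Groups that did not overlap are counted apart from the test. Of the 8 tested ligands, 5 had every L-OHP+FUC library above every L-OHP library, against 16.1% of all tested genes, and 1 had every one below, against 30.9%. In either direction this was 6 of 8, against 47.0% of all tested genes. In the authors' deposited table the ratio of mean FPKM was 0.336 for Ccl5, with a q-value of 6.36e-05, and 1.78 for Ccl3, with a q-value of 4.4e-06. A q-value under 0.05 was given in the authors' deposited table to 5 of the 9 ligands, the 4 called here and Ccl4 at 0.00606, and to 22.9% of the tested genes. The authors' deposited table marks 2 of the 9 as significant, Ccl5 and Ccl12, the latter with a q-value of 0.118 and a log2 ratio of -1.13. Of the 9, these alone had both a deposited p-value under 0.05 and a ratio of at least 2-fold either way. The mark is thus not a cut on the q-value alone.

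The order of the levels changed at its top. FPKM is scaled by length but not by GC content, so ranks between genes are approximate. With L-OHP, Ccl5 was highest in 3 of 3 libraries, followed by Ccl9 and Ccl3, whose ranges overlapped, then Ccl6 and Ccl4, whose ranges overlapped, then Ccl12 and Ccl2, whose ranges overlapped, then Ccl7 and Ccl22, each apart from the one before. With L-OHP+FUC, Ccl3 had the highest mean and was above Ccl5 in 2 of 3 libraries, with overlapping ranges. Ccl9 followed, then Ccl6 and Ccl4 with overlapping ranges, then Ccl2 and Ccl7 with overlapping ranges, then Ccl12 and Ccl22, each apart from the one before. By mean level Ccl12 was at rank 6 with L-OHP and at rank 8 with L-OHP+FUC. The ligands formed an abundant set (Ccl3, Ccl4, Ccl5, Ccl6 and Ccl9), which was never under 63.8 FPKM, and a low set (Ccl2, Ccl7, Ccl12 and Ccl22), which was never over 7.67 FPKM.

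The summed level of the 9 ligands was 1431, 1736 and 851 FPKM with L-OHP and 1096, 974 and 1127 FPKM with L-OHP+FUC. The group means of 1339 ± 449 FPKM and 1066 ± 80.6 FPKM (SD, n = 3 each) overlapped in their libraries (exact two-sided permutation p = 0.4, adjusted p = 0.4 over 15 sums and shares). Without Ccl5 the sum was 537, 597 and 464 FPKM and then 794, 761 and 828 FPKM. This sum is dominated by Ccl3, Ccl4, Ccl6 and Ccl9, each of which was higher in every L-OHP+FUC library. Its split between the groups follows from theirs, so its test adds nothing to them (exact two-sided permutation p = 0.1, adjusted p = 0.15).

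Of the summed FPKM, Ccl5 made up 62.4%, 65.6% and 45.6% with L-OHP and 27.6%, 21.9% and 26.5% with L-OHP+FUC. Its mean share was 57.9% ± 10.8 against 25.3% ± 3.01 (SD, n = 3 each), and the groups did not overlap (exact two-sided permutation p = 0.1, adjusted p = 0.15). Ccl3 and Ccl4 together made up 18.2%, 17.1% and 22.8% with L-OHP and 38.2%, 39.3% and 41.9% with L-OHP+FUC. This share was higher in 3 of 3 L-OHP+FUC libraries (exact two-sided permutation p = 0.1, adjusted p = 0.15). The share of Ccl6 and Ccl9 was 21.9% ± 7.76 and 33.7% ± 3.78 (SD, n = 3 each) with overlapping libraries (exact two-sided permutation p = 0.2, adjusted p = 0.25). Ccl2, Ccl7 and Ccl12 together were 0.889% and 1.16%. A share falls whenever another member rises, so these shares are not independent of each other. Ccl5 was lower, and the sum without it higher, in every L-OHP+FUC library, which fixes the split of the Ccl5 share. The split of the Ccl3 and Ccl4 share largely follows in the same way. The p-values of these shares therefore add nothing to the values of the genes.

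**Figure D3:**
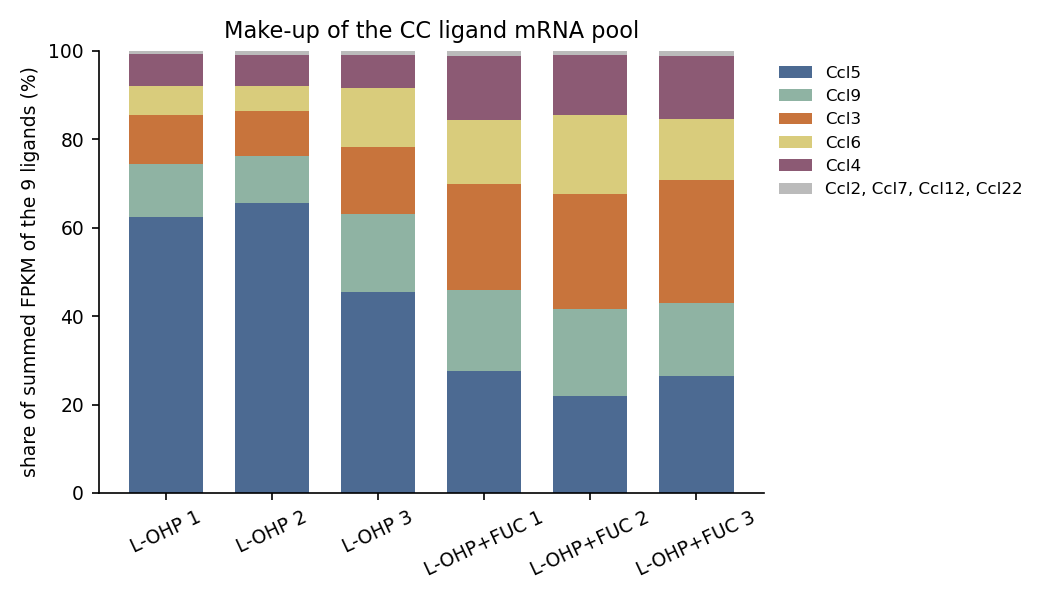
Share of the summed FPKM of the 9 ligands, in percent, in each of the 6 libraries, with the 4 low ligands drawn as 1 segment. The Ccl5 segment is 45.6% to 65.6% of the bar with L-OHP and 21.9% to 27.6% with L-OHP+FUC.

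The libraries within a group also differed from each other in patterned ways. Around each gene's mean over the 6 libraries, Ccl5 lay at 1.01, 1.36 and -0.19 log2 units in the L-OHP replicates and Ccl12 at 0.50, 0.95 and -0.22. L-OHP replicate 3 was thus the lowest L-OHP library for both, and it was also the lowest for Ccl3 at -0.65, Ccl4 at -0.87 and Ccl7 at -0.68. In the L-OHP+FUC group replicate 2 was lowest for Ccl5 at -1.05, for Ccl12 at -0.75 and for Ccl2 at -0.21. It was also lowest for Ccl3 at 0.29, for Ccl4 at 0.16 and for Ccl7 at 0.26. For Ccl6 at 0.44 and Ccl22 at -0.02 it was highest. Replicate 3 of that group was highest for Ccl3 at 0.61 and Ccl7 at 0.57.

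**Figure D4:**
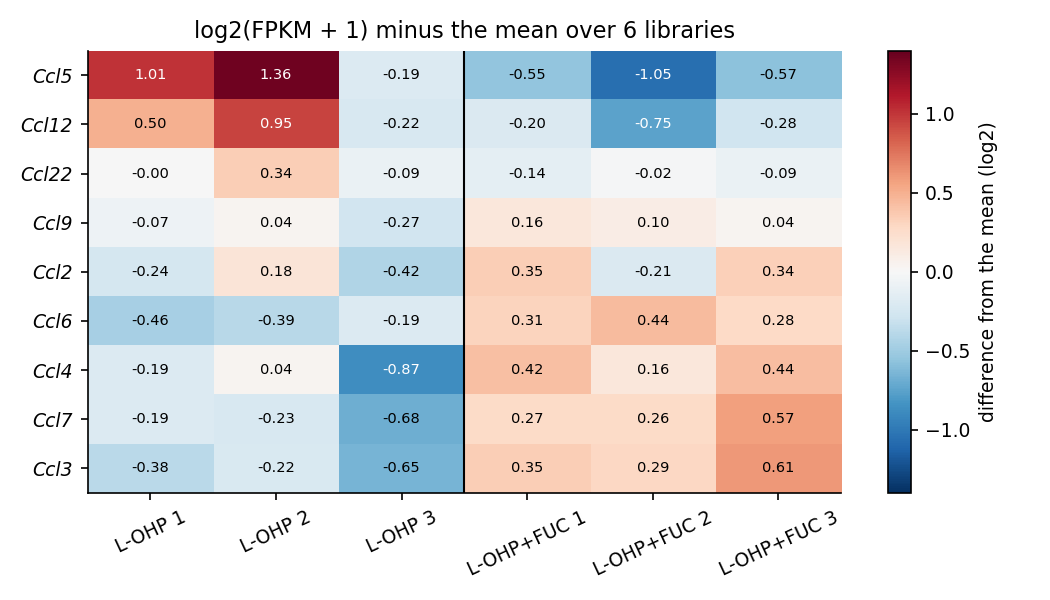
Heat map of log2(FPKM + 1) minus each gene's mean over the 6 libraries, for the 9 ligands in 3 L-OHP and 3 L-OHP+FUC libraries, with the value written in each cell. L-OHP replicates 1 and 2 are high for Ccl5 (1.01 and 1.36) and Ccl12 (0.50 and 0.95), and L-OHP replicate 3 (-0.19 and -0.22) is not.

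On chromosome 11 the 8 ligands lie in a pair of gene clusters. From Ccl2 to Ccl1, a window of 270 kb with 7 annotated genes of which 4 were tested, Ccl7 starts 10.1 kb from the start of Ccl2, Ccl12 66.3 kb and Ccl8 79.6 kb. The log2 fold changes in that order, from Ccl2, were 0.32, 0.74, -0.82 and -0.83. Of the ligands in this window Ccl7 passed the test and Ccl2 and Ccl12 did not, and Ccl8 was kept by the filter only through its L-OHP values. From Ccl5 to Ccl4 is a window of 139 kb with 7 annotated genes of which 5 were tested. Distances here are between lowest coordinates, which are the transcript ends of minus-strand genes. Ccl9 lies 47.1 kb from Ccl5, Ccl6 62.1 kb, Ccl3 122 kb and Ccl4 137 kb. Here Ccl5 was the one gene with a negative log2 fold change, -1.45, and the other 4 had values from 0.20 to 0.83, of which those of Ccl3 and Ccl6 passed.

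**Figure D5:**
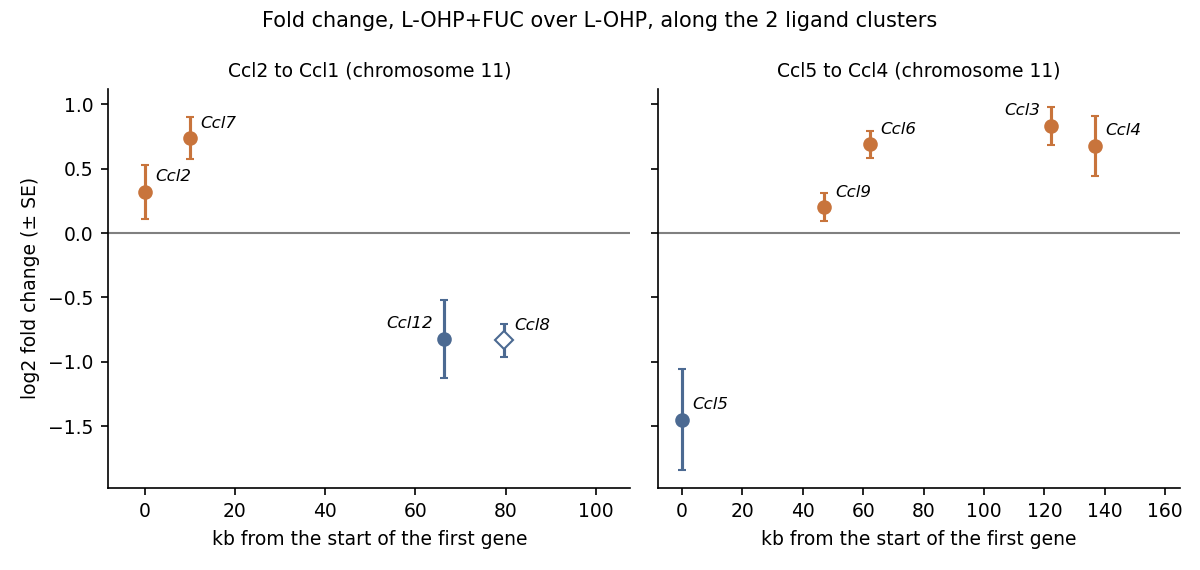
log2 fold change with its standard error, L-OHP+FUC over L-OHP, for the tested genes of the 2 chromosome 11 clusters. The horizontal axis is the distance in kb of each gene's lowest coordinate from that of the first gene. Circles are the 8 tested ligands and the open diamond is Ccl8, which is not 1 of the 9. The left panel runs from 0.74 at Ccl7 to -0.83 at Ccl8, and the right panel from -1.45 at Ccl5 to 0.83 at Ccl3.

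Of 12 other CC ligand genes, 5 were listed at 0 in all libraries and 2 were tested. Ccl8 (MCP-2), the neighbour of Ccl12, measured 1.48, 1.47 and 1.06 FPKM with L-OHP and 0.212, 0.249 and 0.479 FPKM with L-OHP+FUC. Ccl25 measured 0.907, 0.835 and 0.722 FPKM and then 0.337, 0.426 and 0.350 FPKM. Both were called lower, with log2 fold changes of -0.83 (SE 0.13, limma adjusted p = 0.00864) and -0.41 (SE 0.09, limma adjusted p = 0.0225). Because both passed the minimum of 0.5 FPKM only through the L-OHP libraries, a gene kept this way had to be lower with fucoidan. The Ccl25 call was lost without L-OHP replicate 1 or without L-OHP+FUC replicate 1, 2 or 3 (adjusted p = 0.0791, 0.0782, 0.0651 and 0.0519), and its value was -0.12 with the GC and length correction and -0.19 with quantile normalization.

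Of 15 CC receptor genes, 4 were tested and 0 passed, against 27.0% of all tested genes (limma, median log2 fold change 0.03). Ccr1, receptor of Ccl3, Ccl5, Ccl6 and Ccl9, measured 6.49, 4.18 and 8.55 FPKM with L-OHP and 6.07, 6.97 and 7.16 FPKM with L-OHP+FUC (log2 fold change 0.10, limma adjusted p = 0.745, and -0.13 without L-OHP replicate 2). Ccr3, the eosinophil receptor, had means of 0.527 ± 0.0986 FPKM and 0.483 ± 0.165 FPKM (SD, n = 3 each; log2 fold change -0.05, limma adjusted p = 0.800), a sign that turned under several alternatives. Ccr2 was near 0 at 0.0943 to 0.115 FPKM and 0 to 0.0401 FPKM, and was not tested. Ccr4 and the scavenging receptor Ackr2 were each listed at 0 in 5 of 6 libraries. Ccrl2, a non-signalling receptor that binds chemerin, had the smallest p of the list, at 41.1, 57.7 and 31.1 FPKM with L-OHP and 68.9, 57.3 and 61.6 FPKM with L-OHP+FUC. It did not pass (0.56, limma adjusted p = 0.0930), though it did without L-OHP replicate 2 (0.79, adjusted p = 0.0174).

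The genes of factors known to act on chemokine genes or their mRNAs were counted from 4 lists, to be read against the 7.67% of all tested genes called higher and the 19.3% called lower. Of 14 NF-kB subunits and inhibitors, all tested, 3 rose, 0 fell and 11 did not pass (median log2 fold change 0.45). Nfkb2, the p100 and p52 subunit, measured 40.0, 53.1 and 33.4 FPKM with L-OHP and 77.4, 66.3 and 68.9 FPKM with L-OHP+FUC (0.76, SE 0.17, limma adjusted p = 0.0211). Nfkbiz, a nuclear inhibitor-like coactivator, rose by 0.71 (limma adjusted p = 0.0215) and Rela, the p65 subunit, by 0.49 (limma adjusted p = 0.0397). Relb was at 0.44 (limma adjusted p = 0.0537), and passed without L-OHP replicate 2 (0.58, adjusted p = 0.0125), with median ratio rescaling (0.60, adjusted p = 0.0268) and with quantile normalization (0.44, adjusted p = 0.0377). The Nfkb2 call was lost without L-OHP replicate 1 or L-OHP+FUC replicate 1 or 2 (adjusted p = 0.0620 to 0.0776), and the Nfkbiz call without these or L-OHP+FUC replicate 3 (0.0544 to 0.0736). The Rela call was lost without any one library other than L-OHP replicate 2 (adjusted p = 0.0513 to 0.132), and with the GC and length correction (0.31, adjusted p = 0.0680).

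Of 9 interferon-responsive factors, all tested, 1 fell, 0 rose and 8 did not pass (median log2 fold change -0.19). Stat2, part of the type I interferon factor ISGF3, measured 57.0, 73.2 and 40.6 FPKM with L-OHP and 25.0, 22.7 and 25.1 FPKM with L-OHP+FUC (-1.16, SE 0.20, limma adjusted p = 0.0111). Irf7, a regulator of type I interferon genes, measured 96.1, 116 and 61.4 FPKM and then 70.0, 52.6 and 59.5 FPKM (-0.54, limma adjusted p = 0.129). L-OHP replicate 3 was the lowest L-OHP library for Stat2 and Irf7, as it was for 8 of the 9 ligands and for Nfkb2. Without it Irf7 was at -0.80 (adjusted p = 0.0265). Irf8 was at -0.39 (limma adjusted p = 0.140).

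Of 11 AP-1 and C/EBP factors, 9 were tested, 2 rose, 0 fell and 7 did not pass (median log2 fold change 0.41). These were Fosl2 at 0.50 (limma adjusted p = 0.0231) and Cebpa at 0.41 (limma adjusted p = 0.0404), beside Jund at 0.87 (limma adjusted p = 0.0542) and Cebpb at 0.81 (limma adjusted p = 0.0891), which did not pass. The Fosl2 call was lost without L-OHP replicate 1 or any one L-OHP+FUC library (adjusted p = 0.0563 to 0.0797). The Cebpa call was lost without any one library other than L-OHP replicate 2 (adjusted p = 0.0676 to 0.127), and with the GC and length correction (0.22, adjusted p = 0.0576). Without L-OHP replicate 2, Jund was at 1.21 and Cebpb at 1.19 (adjusted p = 0.00623 for both), and Jund also passed with median ratio rescaling (1.04) and with the GC and length correction (0.70).

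Chemokine mRNAs are short-lived, and of 10 factors of cytokine mRNA decay, all tested, 1 rose, 4 fell and 5 did not pass (median log2 fold change -0.08). Zc3h12a (regnase-1), an endonuclease of inflammatory mRNAs, measured 9.79, 12.1 and 10.3 FPKM with L-OHP and 24.2, 25.4 and 23.5 FPKM with L-OHP+FUC (1.12, SE 0.10, limma adjusted p = 0.00339). Zfp36l1, which binds AU-rich elements, measured 10.5, 10.1 and 14.2 FPKM and then 5.10, 5.22 and 4.37 FPKM (-1.09, SE 0.14, limma adjusted p = 0.00620). Its relative Zfp36l2 fell by 0.57 (limma adjusted p = 0.0142), and the roquins Rc3h1 and Rc3h2 by 0.71 and 0.59 (limma adjusted p = 0.0107 and 0.0269), Rc3h2 being named after its value was seen. The Zfp36l2 call was lost without L-OHP+FUC replicate 1 or 2 (adjusted p = 0.0568 and 0.0524). With the GC and length correction Rc3h1 was at -0.18 (adjusted p = 0.109) and Rc3h2 at -0.05, with quantile normalization Rc3h2 was at -0.37 and did not pass, and it lost its call without L-OHP replicate 1 or 2 or L-OHP+FUC replicate 1 or 2 (adjusted p = 0.0541 to 0.0918).

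Markers of other cell types were looked up beside these values. The 8 macrophage markers summed to 12390 to 17862 FPKM with L-OHP and 13315 to 14312 FPKM with L-OHP+FUC. Most of each sum was Lyz2, at 10005 to 15185 FPKM with L-OHP and 10591 to 11655 FPKM with L-OHP+FUC. Against 7.67% of all tested genes called higher and 19.3% called lower, 1 of the 8 markers rose and 2 fell. They were named after their values were seen. These were Csf1r, the M-CSF receptor, at 0.47 (limma adjusted p = 0.0233), Mertk at -0.74 (limma adjusted p = 0.00432) and Fcgr1 at -0.69 (limma adjusted p = 0.0268). The Csf1r call was lost without L-OHP replicate 1 or L-OHP+FUC replicate 1 or 2 (adjusted p = 0.0832 to 0.0854), and the Fcgr1 call without L-OHP replicate 1 or any one L-OHP+FUC library (adjusted p = 0.0602 to 0.0932). Quantile normalization ended the Csf1r call (0.37, adjusted p = 0.0737) and median ratio rescaling the Fcgr1 call (-0.53, adjusted p = 0.0650). The 9 neutrophil markers summed to 3.79 to 4.26 FPKM and 5.45 to 6.35 FPKM. Of these, 2 were tested and S100a8 rose by 0.54 (limma adjusted p = 0.0162, but 0.0589 without L-OHP replicate 1 and 0.0651 without L-OHP+FUC replicate 2), while Ly6g, Retnlg and Cxcr2 were listed at 0 in all libraries. The 7 dendritic cell markers summed to 0.191 to 0.402 FPKM and 0.125 to 0.313 FPKM with Flt3 at 0, and the 7 T and NK cell markers to 0.0481 to 0.117 FPKM and 0.119 to 0.392 FPKM with Cd3e and Cd3d at 0. B cell markers (3) reached at most 0.874 FPKM in sum and mast cell and basophil markers (4) at most 0.423 FPKM. The 6 fibroblast and stroma markers summed to 4.84 to 11.8 FPKM and 7.09 to 7.52 FPKM. Of 4 tested, 0 passed the limma threshold, against 27.0% of all tested genes. The Ccl5 level of 213 to 1139 FPKM stood beside T and NK cell markers that summed to at most 0.392 FPKM.

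The genes whose pattern over the 6 libraries was most like each ligand's were found by the mean absolute difference between centred log2(FPKM + 1) values, among 5558 genes with a mean of at least 5 FPKM. Nearest to Ccl5 were Nek7 (0.127) and Iigp1 (0.128), which like Ccl5 were at a lower level in L-OHP replicate 3 than in replicates 1 and 2. Nearest to Ccl12 were H2-Q5 (0.0875) and Ms4a4c (0.105). Pf4 was among the nearest for both Ccl3 (0.0576, with Plpp1 at 0.0660) and Ccl7 (0.0793, after Clec4e at 0.0598). Nearest to Ccl4 were Acod1 (0.0931) and Nfkbiz (0.0986), to Ccl6 Ckap4 (0.0325) and Ifi27 (0.0373), to Ccl9 Slc39a7 (0.0195) and Get4 (0.0225), and to Ccl2 Znhit2 (0.0718) and AI837181 (0.0804). These distances describe 6 libraries that share their groups, and no test was made of them.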

How the data were processed

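RNA of 3 L-OHP and 3 L-OHP+FUC macrophage samples was depleted of ribosomal RNA with probes, fragmented and reverse transcribed from random primers, per the labels' protocols. The submitters' processing notes name bcl2fastq 2.0, HISAT2, StringTie, DESeq2, limma and mm10 without their roles. Counting, strand use and annotation release were not given in the sources used here, so reads of overlapping or near-identical genes may be shared. The deposited values were FPKM per gene and sample, with 0.0001 as a placeholder, here set to 0 (215566 values). The authors also deposited a fold ratio (found to be the ratio of mean FPKM), its log2, and a p-value and q-value per gene whose tool is not stated. Gene positions came from GENCODE M21 on GRCm38 (99.53% of IDs matched).

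limma 3.58.1 in R 4.3.3 was fitted to log2(FPKM + 1) on the group alone, with an intensity trend and two-sided tests, over the 12084 genes that reached 0.5 FPKM in 3 or more of 6 libraries, after it was tested on simulated data. Raw counts could not be recovered, since 39.8% to 47.8% of low values were whole reads within 0.03 reads. Implied fragments are FPKM times transcript length and implied depth, and are approximate. Sums and shares of FPKM and log2 ratios of FPKM + 1 were compared with exact permutation tests (scipy 1.17.1). The ligands and the gene lists were chosen with earlier results of these data known. Motifs were searched in 300 bases of each RefSeq promoter. Named list genes are those of smallest p, up to 4 of a list with a call and up to 2 otherwise, with Ccr1 to Ccr4 and Ackr2 always. Some genes that the rule names are not reported here. The alternatives were another pseudocount (0.1), no filter or a minimum mean of 5 FPKM, rescaling by median ratios, quantile normalization, no trend, the replicate number as a block, a GC and length correction, both together, other thresholds, and each library left out. Same-numbered samples did not deviate together (r = -0.037, -0.071 and 0.083), so the numbers were not taken as pairs.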

Additional observations from a re-analysis of the deposited data

How the results depend on the processing

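Ccl3 and Ccl6 kept their call in all 15 alternatives run for them, with adjusted p-values of at most 0.0413 and 0.0436, and Ccl2 and Ccl9 passed in none of theirs. No tested ligand and no ligand ratio changed sign in any alternative run. Where calls changed, the cause was not tested, beyond the fewer samples of a left-out library. Against 3262 genes and 4 ligands called, no filter gave 2081 and 2, an adjusted p of 0.01 gave 637 and 1, a fold of at least 2 gave 423 and 1, and leaving out 1 library 1101 to 3377 and 2 to 5, the low gene counts being those without L-OHP replicate 1 (1402) or L-OHP+FUC replicate 1 (1224) or 2 (1101). A mean of at least 5 FPKM gave 1720 genes, with no value for Ccl7 and Ccl12, and the replicate block with the GC and length correction 1448 genes. With the replicate block alone, 2316 genes and 2 ligands passed, and the Ccl5 (-1.45, adjusted p = 0.0612) and Ccl7 (0.74, adjusted p = 0.0556) calls were lost. The block with the correction gave -1.30 for Ccl5, whose call was lost there too (adjusted p = 0.0933). No filter gave -1.45 for Ccl5 and 0.74 for Ccl7, and median ratio rescaling -1.29 for Ccl5 and 0.84 for Ccl4, which was 0.94 with the correction. With 1 library left out, Ccl4 ranged from 0.41 to 0.87, Ccl5 from -1.91 to -1.13, Ccl7 from 0.58 to 0.82 and Ccl12 from -1.14 to -0.55. Median ratio rescaling moved the median log2 fold change of all genes from -0.10 to 0.02. Of the receptors that did not pass, Ccr1 ranged from -0.13 to 0.31 and Ccr3 from -0.13 to 0.034 with 1 library left out, and Ccr3 was at 0.0070 with median ratio rescaling, 0.19 with quantile normalization, 0.26 with the correction and 0.26 with the block and correction. The same-numbered samples share only a number, so a call lost under the block is not read as a weaker effect. No filter also ended the calls of Nfkb2, Nfkbiz, Rela, Fosl2, Cebpa, Rc3h2, Csf1r, Fcgr1, Hpse and Sdc1. The levels of Ccl22, Ccl7 and Ccl12 stood for at most 76.9 fragments a library, and the part of depth in their results was not tested.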

Other observations

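Chemokines are also cut by proteases and held on sulfated chains of proteoglycans. Of 14 genes of such proteases and sulfate-chain carriers, 13 were tested, 2 rose, 1 fell and 10 did not pass. Of all tested genes, 7.67% were called higher and 19.3% lower. The median log2 fold change of the list was 0.16, against -0.10 for all tested genes. Mmp9, a gelatinase that trims chemokines, measured 22.8, 27.5 and 19.6 FPKM with L-OHP and 58.7, 64.1 and 50.8 FPKM with L-OHP+FUC, so that the groups were far apart. Its log2 fold change was 1.28 (SE 0.15, limma adjusted p = 0.00436), and the call was kept in all 15 alternatives. Sdc1, the proteoglycan syndecan-1, rose by 0.53 (limma adjusted p = 0.0471) and Hpse, the heparan sulfate-cutting enzyme heparanase, fell by 0.40 (limma adjusted p = 0.0275). Both calls were lost without any one library other than L-OHP replicate 2 (adjusted p = 0.0505 to 0.137), that of Hpse also with median ratio rescaling (-0.24, adjusted p = 0.132) and that of Sdc1 with the GC and length correction (0.42, adjusted p = 0.0715). Mmp14 was at 0.25 (limma adjusted p = 0.0704), and passed without L-OHP replicate 2 (0.30, adjusted p = 0.0303) and with median ratio rescaling (0.41, adjusted p = 0.0217).

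Cx3cl1 (fractalkine), a chemokine of another class that lies 26.4 kb from the start of Ccl22 on chromosome 8, was singled out after its values were seen. It measured 0.192, 0.224 and 0.283 FPKM with L-OHP and 0.443, 0.342 and 0.548 FPKM with L-OHP+FUC. The groups did not overlap, but the gene was too low to be tested, as were all 4 annotated genes of the 66.4 kb from Ccl22 to Ccl17.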
